A study of Mus musculus with 6 samples.

Results

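The 45 genes described here encode the ligands, receptors, secreted antagonists, latency proteins, inhibitory Smads and Id targets of bone morphogenetic protein (BMP), transforming growth factor beta (TGF-beta) and activin signalling. They were given as a list of names by class, a rule that uses no measured value, and all 45 were found among the 24062 genes of the count tables. RNA was sequenced from sorted epithelial and mesenchymal cells of dorsal pancreatic buds of mouse embryos at E12.5 and E14.5, which are embryonic days, in 6 libraries. Each library was a pool of sorted cells, and each of the 6 combinations of fraction, stage and genotype had 1 library. Control embryos are labelled mTmG, a reporter whose cells carry Tomato until Cre recombinase turns them to GFP. The labelled genotype of mutant embryos includes mTmG+/-, Nkx2.5-Cre+/- and Pbx2+/-, so that Cre is driven by Nkx2-5, a gene of the splanchnic mesenchyme, and 1 copy of Pbx2 is mutant. The groups were control and mutant mesenchyme at E12.5, control and mutant epithelium at E12.5, and control and mutant epithelium at E14.5. Both groups of every pair carry the reporter, and the labels do not say which colour was taken as which fraction, nor how GFP cells arose in the control. The series compares the fractions and the genotypes.

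Ligands of this superfamily bind pairs of type I and type II serine/threonine kinase receptors, which phosphorylate Smad proteins that then act on genes in the nucleus. BMPs act through Smad1, Smad5 and Smad9 and induce the Id genes, whereas TGF-beta and activin act through Smad2 and Smad3. Secreted antagonists hold ligands away from receptors, latent TGF-beta binding proteins store TGF-beta in the matrix, and Smad6 and Smad7 limit the response. In the embryonic pancreas, signals of this family pass between mesenchyme and epithelium, and activin and TGF-beta ligands are known to affect the choice between endocrine and exocrine fates.

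Levels are CPM (read counts as a proportion of the library total) on a common scale for the 6 libraries, whose totals on genes ran from 14032569 to 20276045 reads. With 1 library per group there is no replicate error and no test. A ratio of 2 libraries is given as a fold with its 95% interval in parentheses, which covers counting error only. A gene counts as measured in a comparison if either library holds 5 CPM or more. It is called higher or lower if the fold is 2 or more and the interval excludes 1. Pairs of values give the control first. Genes are compared with each other only as CPM per kilobase of exon.

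Pbx2 and markers of cell types were set beside the library labels. Pbx2, which encodes a homeodomain partner of Hox factors, stood at 89.9 CPM in control and 56.01 CPM in mutant mesenchyme, 54.5 and 49.7 CPM in E12.5 epithelium, and 34.04 and 47.3 CPM in E14.5 epithelium. It was 1.60-fold (1.47 to 1.75) lower in mutant mesenchyme, which was not called, and in epithelium it was not lower at both stages, standing 1.39-fold (1.24 to 1.56) higher in the mutant library at E14.5. The labels do not say whether the mutant allele lowers Pbx2 RNA, so these levels cannot check the genotype labels. The epithelial libraries of the mutant genotype are called "labelled mutant" below, a name that takes the genotype from the label alone. Summed over 25 epithelial markers, the level was 331 and 284 CPM in mesenchyme against 4714 and 4091 CPM in E12.5 epithelium, and 4 and 6 of those markers had no read in control and mutant mesenchyme. The 25 mesenchymal markers were not absent from the epithelium. They summed to 6348 and 7394 CPM at E12.5 and to 6607 and 13439 CPM at E14.5, against 12946 and 11580.3 CPM in mesenchyme. The table of the E12.5 control epithelium carries a name form and date unlike the other 5, which cannot be told apart from that group.

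Of the 45 genes, 36 reached 5 CPM in at least 1 library and 26 did so in all 6. Per kilobase, Id1, Id2, Id3, Tgfbi and Fstl1 were the 5 highest members in all libraries but control E14.5 epithelium. There Bmp7 stood at 58.5 CPM per kb, above Fstl1 at 38.2 CPM per kb, and Bambi at 22.7, above Tgfbi at 20.6 CPM per kb. Id2 was the highest in control E12.5 epithelium at 175 CPM per kb, and Tgfbi the highest in control mesenchyme at 223 CPM per kb. The order of the top genes differed between fractions: Tgfbi, a secreted matrix protein named for its induction by TGF-beta, stood at 47.1 CPM per kb in control E12.5 epithelium, below Id1 at 111, Id3 at 172 and Fstl1 at 61.7 CPM per kb. A total of 9 genes stayed under 5 CPM in every library, namely Bmp3, Gdf15, Inhba, Inhbb, Bmpr1b, Grem1, Fst, Bmper and Ltbp2. At least 1 call was made for 27 genes over the 7 comparisons, and 18 genes had none. Those 18 include the 9 genes under 5 CPM, which could not be called. The share of all genes with a call in any comparison is not given here, so the 27 are not set against a background.

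**Figure D1:**
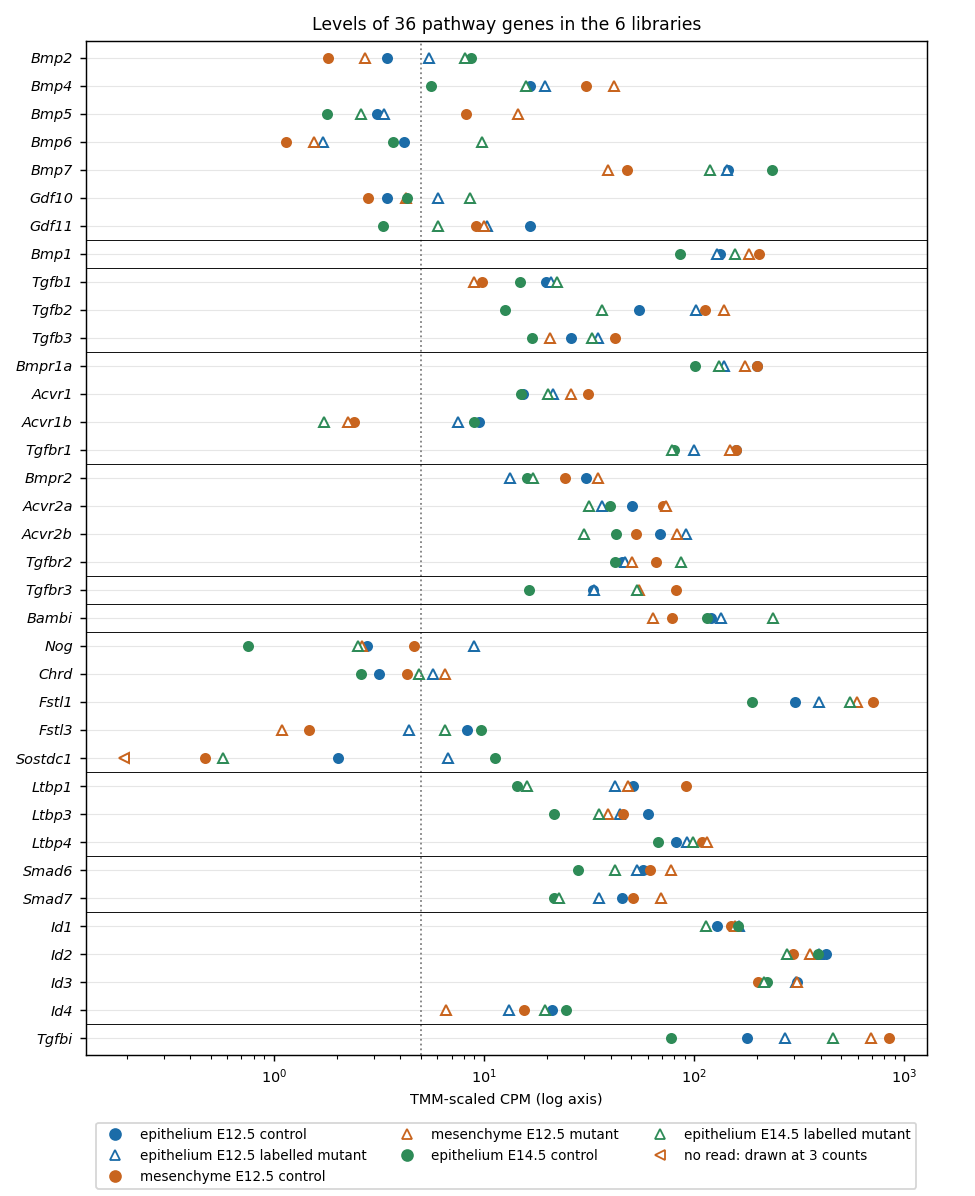
Level of the 36 genes that reached 5 CPM, in CPM on a log axis, with 1 point per library; circles are controls, triangles the mutant or labelled mutant, and horizontal lines part the classes. The dotted line marks 5 CPM, and the left-pointing triangle stands for mutant mesenchyme with no Sostdc1 read, drawn at 3 counts.

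The stretches before the start sites of 3 genes are shown because these genes were called between genotypes and their windows hold no exon of any gene. Bmp4 and Tgfbr2 were higher in labelled mutant E14.5 epithelium, and Id4 was lower in mutant mesenchyme; the choice was made after their values were seen. The 250 bases upstream are from RefSeq on GRCm38.p6, the assembly also called mm10, and run 5′ to 3′ on the strand of the gene. Bmp4 lies at chr14:46390670-46390919 (minus strand), Tgfbr2 at chr9:116175364-116175613 (minus strand) and Id4 at chr13:48260866-48261115 (plus strand). Capitals mark CAGAC, a core to which Smad3 and Smad4 bind, and GGCGC, a core bound by BMP-regulated Smads, on either strand and with overlapping matches joined.
Bmp4: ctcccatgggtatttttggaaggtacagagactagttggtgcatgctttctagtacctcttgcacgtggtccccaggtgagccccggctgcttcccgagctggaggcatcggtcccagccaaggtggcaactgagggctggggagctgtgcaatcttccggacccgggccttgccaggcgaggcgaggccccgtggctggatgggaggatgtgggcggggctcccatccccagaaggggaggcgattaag
Tgfbr2: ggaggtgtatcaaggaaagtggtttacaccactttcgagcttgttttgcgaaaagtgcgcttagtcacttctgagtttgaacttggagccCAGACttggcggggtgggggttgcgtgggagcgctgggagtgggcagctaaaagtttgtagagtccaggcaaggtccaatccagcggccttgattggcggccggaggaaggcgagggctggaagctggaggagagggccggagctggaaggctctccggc
Id4: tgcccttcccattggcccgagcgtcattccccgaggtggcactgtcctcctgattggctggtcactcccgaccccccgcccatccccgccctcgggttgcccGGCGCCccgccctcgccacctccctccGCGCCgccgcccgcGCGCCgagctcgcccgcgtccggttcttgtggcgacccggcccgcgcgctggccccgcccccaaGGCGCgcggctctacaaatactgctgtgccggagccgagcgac
Id4 held 5 matches to GGCGC and none to CAGAC, Tgfbr2 held 1 match to CAGAC and none to GGCGC, and Bmp4 held neither. Over 32851 mouse windows of the same length, 42.2% held CAGAC and 32.0% held GGCGC. Entries were found for 33 of the 45 genes, in 40 windows, of which 20 held CAGAC and 23 held GGCGC. Some genes gave more than 1 window, and windows of Ltbp4 overlap. The median GC content was 52.4% over all windows. Most member windows lay above it, in a range from 42.8% (Bmp5) to 85.6% (Acvr1). The part of GC content in the member counts was not tested. The matches are letters only and are not shown to be bound.

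Among the BMP ligands, Bmp7 was lower in mesenchyme than in epithelium in both pairs of fractions. Per kilobase it exceeded Bmp4 in control E12.5 epithelium, at 36.1 against 7.37 CPM per kb, but not in control mesenchyme, at 11.9 against 13.6 CPM per kb. Bmp7, a ligand of epithelia in many organs, stood at 47.8 CPM in control and 39.04 CPM in mutant mesenchyme, 145 and 143 CPM in E12.5 epithelium, and 235 and 119 CPM in E14.5 epithelium. The 4 epithelial libraries were all above both mesenchymal ones. The control mesenchyme was 3.04-fold (2.80 to 3.30) below the control epithelium, and the mutant mesenchyme was 3.65-fold (3.34 to 4.005) below its epithelium. At E14.5 the labelled mutant was 1.98-fold (1.87 to 2.10) below the control, just short of a call. Bmp4, a ligand of mesenchyme in many organs, stood at 30.6 CPM in control and 41.5 CPM in mutant mesenchyme, 16.6 and 19.4 CPM in E12.5 epithelium, and 5.62 and 15.9 CPM in E14.5 epithelium. It was highest in the 2 mesenchymal libraries and lowest in control E14.5 epithelium. The difference between fractions was 1.84-fold (1.60 to 2.13) in controls, which was not called, and 2.14-fold (1.86 to 2.46) in mutants. Control epithelium at E14.5 was 2.95-fold (2.31 to 3.80) below E12.5, and the labelled mutant at E14.5 was 2.83-fold (2.18 to 3.69) above its control.

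Bmp5 and Bmp2 took opposite sides of the fractions at lower levels. Bmp5, a ligand close to Bmp7 in sequence, stood at 8.18 CPM in control and 14.47 CPM in mutant mesenchyme, 3.11 and 3.35 CPM in E12.5 epithelium, and 1.78 and 2.59 CPM in E14.5 epithelium. Mesenchyme was above epithelium by 2.63-fold (1.94 to 3.61) in controls and 4.32-fold (3.17 to 5.97) in mutants. Bmp2, a ligand of the same subgroup as Bmp4, stood at 1.81 CPM in control and 2.70 CPM in mutant mesenchyme, 3.44 and 5.45 CPM in E12.5 epithelium, and 8.70 and 8.12 CPM in E14.5 epithelium. Its 4 epithelial values were above both mesenchymal ones, and control epithelium at E14.5 was 2.53-fold (1.88 to 3.42) above E12.5, a call that was lost relative to the epithelial markers (log2 ratio 0.73). In mutants the mesenchyme was 2.02-fold (1.38 to 3.0) below the labelled mutant epithelium. Bmp6, a ligand of the Bmp7 subgroup, stood at 1.14 CPM in control and 1.54 CPM in mutant mesenchyme, 4.14 and 1.71 CPM in E12.5 epithelium, and 3.70 and 9.77 CPM in E14.5 epithelium. All 4 epithelial values were above the mesenchymal ones. Only the labelled mutant E14.5 epithelium exceeded 5 CPM among the 6 libraries, 2.64-fold (1.91 to 3.69) above its control and 5.72-fold (3.74 to 9.07) above the labelled mutant at E12.5. Of the exon bases of Bmp6, 5.74% overlap those of Txndc5, and whether counting used strand is not given in the sources used here.

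Gdf11, a ligand that signals through activin receptors and is known to limit endocrine progenitors in the pancreas, stood at 9.12 CPM in control and 10.03 CPM in mutant mesenchyme, 16.6 and 10.4 CPM in E12.5 epithelium, and 3.29 and 6.03 CPM in E14.5 epithelium. Control epithelium at E14.5 was 5.06-fold (3.73 to 6.99) below that at E12.5, and the corresponding difference between labelled mutants was 1.72-fold (1.31 to 2.27), also downwards and not called. Gdf10, a ligand also named BMP3B, stood at 2.82 CPM in control and 4.24 CPM in mutant mesenchyme, 3.44 and 6.04 CPM in E12.5 epithelium, and 4.32 and 8.62 CPM in E14.5 epithelium. It had no call in any comparison, although the labelled mutant at E14.5 lay 1.997-fold (1.46 to 2.75) above its control. Bmp3 had no read in 3 libraries and reached at most 1.84 CPM, in control E12.5 epithelium, and Gdf15 reached at most 3.79 CPM, in mutant mesenchyme. Bmp1 is listed with these ligands by name but encodes a procollagen C-proteinase that also cleaves chordin. It stood at 203 CPM in control and 182 CPM in mutant mesenchyme, 133 and 128 CPM in E12.5 epithelium, and 85.97 and 157 CPM in E14.5 epithelium, with no call.

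Of the TGF-beta ligands, Tgfb1 was higher in epithelium and Tgfb2 in mesenchyme among controls. Tgfb1 stood at 9.79 CPM in control and 9.003 CPM in mutant mesenchyme, 19.6 and 20.9 CPM in E12.5 epithelium, and 14.8 and 22.3 CPM in E14.5 epithelium. Every epithelial library was above both mesenchymal ones, and mesenchyme was below epithelium by 2.01-fold (1.66 to 2.44) in controls and 2.32-fold (1.90 to 2.85) in mutants. Tgfb2 stood at 113 CPM in control and 139 CPM in mutant mesenchyme, 54.4 and 102 CPM in E12.5 epithelium, and 12.5 and 36.4 CPM in E14.5 epithelium. Control mesenchyme was 2.08-fold (1.93 to 2.24) above control epithelium, a call that was lost in plain CPM without scaling factors. In mutants the difference was 1.35-fold (1.27 to 1.45), which was not called. Epithelium at E14.5 was below E12.5 by 4.34-fold (3.71 to 5.10) in controls and 2.81-fold (2.54 to 3.12) in labelled mutants. At E14.5 the labelled mutant was 2.90-fold (2.45 to 3.46) above its control, and at E12.5 it was 1.88-fold (1.75 to 2.03) above, short of a call.

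Tgfb3 stood at 41.99 CPM in control and 20.7 CPM in mutant mesenchyme, 25.95 and 34.7 CPM in E12.5 epithelium, and 16.9 and 32.6 CPM in E14.5 epithelium. The highest value was that of control mesenchyme, and mutant mesenchyme was 2.03-fold (1.77 to 2.33) below it. In epithelium the labelled mutant was above its control by 1.34-fold (1.18 to 1.51) at E12.5 and 1.93-fold (1.65 to 2.26) at E14.5, neither of which was called. The activin subunits were scarce in these libraries: Inhba, the subunit of activin A, reached at most 2.26 CPM and Inhbb, that of activin B, at most 3.90 CPM, both in control E14.5 epithelium.

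**Figure D2:**
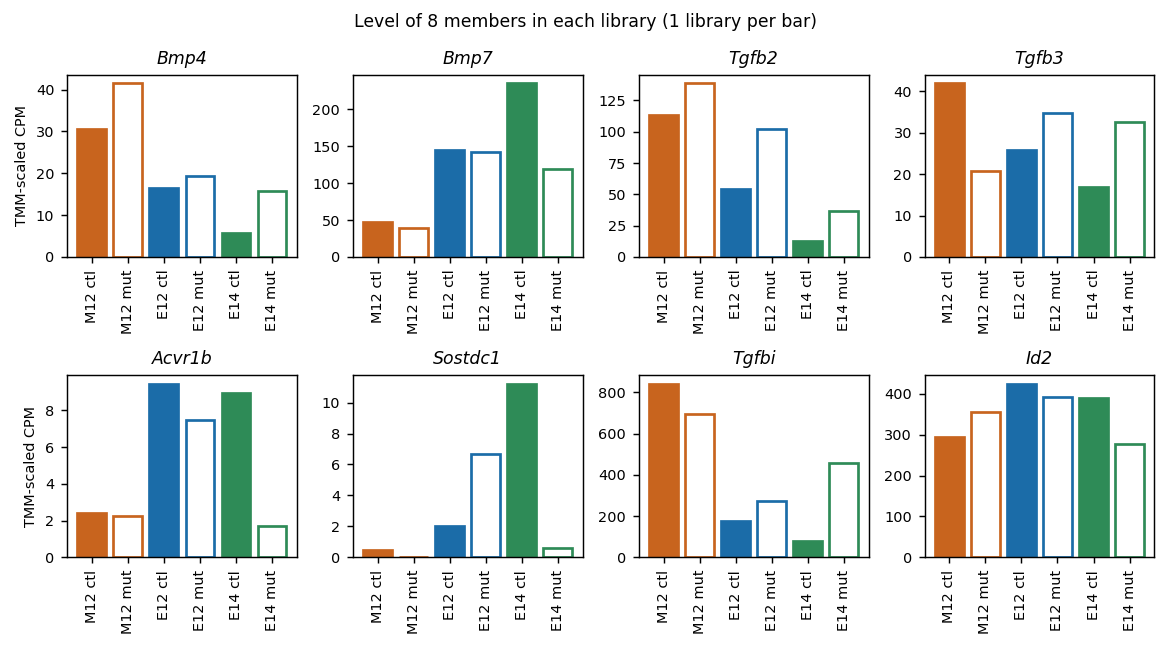
CPM of 8 genes, chosen after their values were seen, with 1 bar per library on axes that start at 0. M12 is E12.5 mesenchyme, E12 and E14 are epithelium at E12.5 and E14.5, ctl is control (filled) and mut is the mutant or, in epithelium, labelled mutant (open). The Bmp7 bars are taller in epithelium, those of Tgfbi in mesenchyme, and Sostdc1 is tallest in control E14.5 epithelium.

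The receptors for BMP and TGF-beta were present in both fractions. Bmpr1a, the main type I receptor for BMPs, stood at 199 CPM in control and 175 CPM in mutant mesenchyme, 199 and 139 CPM in E12.5 epithelium, and 100.4 and 131 CPM in E14.5 epithelium, and the TGF-beta type I receptor Tgfbr1 at 159 CPM in control and 149 CPM in mutant mesenchyme, 158 and 99.7 CPM in E12.5 epithelium, and 80.4 and 78.8 CPM in E14.5 epithelium. Neither was called in any comparison. The second BMP type I receptor, Bmpr1b, reached at most 3.09 CPM, in control mesenchyme. Acvr1, a type I receptor used by BMP7 among others, stood at 31.2 CPM in control and 25.98 CPM in mutant mesenchyme, 15.3 and 21.3 CPM in E12.5 epithelium, and 15.00 and 20.1 CPM in E14.5 epithelium, and control mesenchyme was 2.04-fold (1.76 to 2.35) above control epithelium. In plain CPM that log2 ratio was 0.97 and not called.

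Acvr1b, the activin type I receptor also named ALK4, was higher in epithelium in both pairs. It stood at 2.41 CPM in control and 2.25 CPM in mutant mesenchyme, 9.47 and 7.49 CPM in E12.5 epithelium, and 8.97 and 1.72 CPM in E14.5 epithelium. Mesenchyme was below epithelium by 3.92-fold (2.74 to 5.76) in controls and 3.33-fold (2.26 to 5.01) in mutants. The labelled mutant E14.5 epithelium was 5.21-fold (3.35 to 8.42) below its control and 4.35-fold (2.78 to 7.06) below the labelled mutant at E12.5. It had 24 reads, against 36 in control and 35 in mutant mesenchyme, all under 5 CPM, so its order against mesenchyme is uncertain. In control epithelium the stages were 1.05-fold (0.842 to 1.32) apart, with an interval that holds 1.

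Among the type II receptors, Bmpr2 had 2 calls over the 7 comparisons, and Acvr2a, Acvr2b and Tgfbr2 had 1 each. These counts are not set against a background. Bmpr2, which pairs with the BMP type I receptors, stood at 24.3 CPM in control and 35.05 CPM in mutant mesenchyme, 30.7 and 13.3 CPM in E12.5 epithelium, and 15.96 and 17.02 CPM in E14.5 epithelium. The labelled mutant E12.5 epithelium had the lowest value of the 6 libraries, 2.30-fold (1.96 to 2.70) below its control, and mutant mesenchyme was 2.63-fold (2.23 to 3.10) above it. Acvr2a and Acvr2b bind activins, GDFs and some BMPs. Acvr2a stood at 71.2 CPM in control and 73.8 CPM in mutant mesenchyme, 50.5 and 36.6 CPM in E12.5 epithelium, and 39.9 and 31.6 CPM in E14.5 epithelium, and mutant mesenchyme was 2.02-fold (1.82 to 2.23) above the labelled mutant epithelium, at a log2 ratio of 0.98 and not called in plain CPM. Acvr2b stood at 53.1 CPM in control and 83.02 CPM in mutant mesenchyme, 68.7 and 91.9 CPM in E12.5 epithelium, and 42.7 and 29.9 CPM in E14.5 epithelium, and the labelled mutant epithelium at E14.5 was 3.07-fold (2.75 to 3.43) below that at E12.5. Tgfbr2, the TGF-beta type II receptor, stood at 65.7 CPM in control and 50.7 CPM in mutant mesenchyme, 45.5 and 46.8 CPM in E12.5 epithelium, and 41.9 and 86.8 CPM in E14.5 epithelium. Its highest value was that of labelled mutant E14.5 epithelium, 2.07-fold (1.88 to 2.28) above the control.

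Tgfbr3, or betaglycan, presents TGF-beta2 to the receptors and binds inhibins. It stood at 81.6 CPM in control and 54.5 CPM in mutant mesenchyme, 32.9 and 33.3 CPM in E12.5 epithelium, and 16.4 and 53.6 CPM in E14.5 epithelium. Control mesenchyme had the highest value, 2.48-fold (2.26 to 2.72) above control epithelium. Control E14.5 epithelium had the lowest, 2.003-fold (1.73 to 2.33) below E12.5 (log2 ratio -0.97 and not called with DESeq2 size factors), and the labelled mutant was 3.26-fold (2.82 to 3.79) above it. Bambi, a pseudoreceptor that lacks a kinase and limits BMP and TGF-beta signalling, stood at 78.3 CPM in control and 63.5 CPM in mutant mesenchyme, 120.2 and 135 CPM in E12.5 epithelium, and 115 and 238 CPM in E14.5 epithelium. All 4 epithelial values were above the mesenchymal ones. In mutants, mesenchyme was 2.12-fold (1.97 to 2.29) below epithelium, and at E14.5 the labelled mutant was 2.06-fold (1.94 to 2.19) above its control.

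Among the secreted antagonists, Sostdc1 had the largest called folds. Sostdc1 encodes a BMP and Wnt antagonist, lies on chromosome 12 from 36314139 to 36318452 in mm10, and stood at 0.469 CPM in control mesenchyme with no read in mutant mesenchyme, 2.03 and 6.70 CPM in E12.5 epithelium, and 11.2 and 0.575 CPM in E14.5 epithelium. Its level was highest in control E14.5 epithelium and, among the epithelial libraries, lowest in the labelled mutant of the same stage. Control epithelium at E14.5 was 5.55-fold (3.94 to 7.95) above E12.5, whereas the labelled mutant at E14.5 was 11.7-fold (5.70 to 27.7) below that at E12.5. Between genotypes, the labelled mutant was 3.31-fold (2.30 to 4.84) above control at E12.5 and 19.6-fold (9.69 to 46.1) below it at E14.5. These values rest on 43 and 102 reads at E12.5 and 164 and 8 reads at E14.5. The labelled mutant E12.5 epithelium was 34.7-fold above the mutant mesenchyme when the latter, which had no read, was given 3 counts. That value depends on the floor and is not a bound of an interval.

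Nog, the BMP antagonist noggin, stood at 4.63 CPM in control and 2.64 CPM in mutant mesenchyme, 2.78 and 8.94 CPM in E12.5 epithelium, and 0.753 and 2.51 CPM in E14.5 epithelium. Only the labelled mutant E12.5 epithelium exceeded 5 CPM among the 6 libraries. It was 3.22-fold (2.35 to 4.44) above its control, mutant mesenchyme was 3.39-fold (2.37 to 4.93) below it, and the labelled mutant at E14.5 was 3.56-fold (2.44 to 5.31) below it. Chrd, chordin, another BMP antagonist, stood at 4.29 CPM in control and 6.50 CPM in mutant mesenchyme, 3.16 and 5.72 CPM in E12.5 epithelium, and 2.60 and 4.88 CPM in E14.5 epithelium, with no call. Grem1 and Bmper, which also bind BMPs, reached at most 2.44 CPM and 1.58 CPM, both in labelled mutant epithelium.

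Fstl1, a secreted follistatin-like glycoprotein known to bind BMP4, was among the most abundant members in both fractions. It stood at 706 CPM in control and 598 CPM in mutant mesenchyme, 303 and 391 CPM in E12.5 epithelium, and 188 and 549 CPM in E14.5 epithelium. Control mesenchyme was the highest library, 2.33-fold (2.26 to 2.40) above control epithelium, while control E14.5 epithelium was the lowest. The labelled mutant at E14.5 was 2.92-fold (2.80 to 3.05) above its control, at 549 CPM against 598 CPM in mutant mesenchyme. Fst, follistatin, which binds activin, had no read in control E12.5 epithelium or in either mesenchymal library. It reached at most 3.48 CPM, in labelled mutant E12.5 epithelium on 53 reads. Fstl3, another activin antagonist, stood at 1.48 CPM in control and 1.09 CPM in mutant mesenchyme, 8.29 and 4.40 CPM in E12.5 epithelium, and 9.66 and 6.54 CPM in E14.5 epithelium, and control mesenchyme was 5.62-fold (3.60 to 9.19) below control epithelium. That value is uncertain, since 47.3% of its exon bases overlap those of Prss57.

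The latent TGF-beta binding proteins, which anchor TGF-beta in the matrix, were called only between stages. Ltbp1 stood at 91.3 CPM in control and 48.7 CPM in mutant mesenchyme, 51.4 and 42.2 CPM in E12.5 epithelium, and 14.4 and 15.9 CPM in E14.5 epithelium. The 2 values at E14.5 were below all 4 at E12.5, by 3.58-fold (3.08 to 4.16) in controls and 2.65-fold (2.27 to 3.10) in labelled mutants. In mesenchyme the mutant was 1.88-fold (1.72 to 2.05) below the control, short of a call. Ltbp3 stood at 45.9 CPM in control and 38.7 CPM in mutant mesenchyme, 60.4 and 44.3 CPM in E12.5 epithelium, and 21.5 and 35.3 CPM in E14.5 epithelium, and control epithelium at E14.5 was 2.81-fold (2.48 to 3.19) below E12.5. Ltbp4 stood at 109 CPM in control and 116 CPM in mutant mesenchyme, 82.2 and 92.1 CPM in E12.5 epithelium, and 67.4 and 98.4 CPM in E14.5 epithelium, with no call, and Ltbp2 reached at most 1.18 CPM.

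The inhibitory Smads are themselves induced by the pathways they limit. Smad6 stood at 61.9 CPM in control and 77.8 CPM in mutant mesenchyme, 56.9 and 53.4 CPM in E12.5 epithelium, and 28.02 and 42.2 CPM in E14.5 epithelium, and Smad7 at 51.3 CPM in control and 69.4 CPM in mutant mesenchyme, 45.2 and 35.2 CPM in E12.5 epithelium, and 21.6 and 22.8 CPM in E14.5 epithelium. For both genes the highest value was that of mutant mesenchyme and the lowest that of control E14.5 epithelium. Control epithelium at E14.5 was below E12.5 by 2.03-fold (1.82 to 2.28) for Smad6 and 2.10-fold (1.84 to 2.39) for Smad7. With DESeq2 size factors the log2 ratio of Smad6 was -0.99 and not called. No other comparison gave a call for either gene.

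The Id genes encode inhibitors of basic helix-loop-helix factors and are induced by BMP in many cell types. Id1 stood at 150.0 CPM in control and 156 CPM in mutant mesenchyme, 128 and 163 CPM in E12.5 epithelium, and 162 and 114 CPM in E14.5 epithelium. Id2 stood at 294 CPM in control and 357 CPM in mutant mesenchyme, 426 and 393 CPM in E12.5 epithelium, and 389.8 and 277 CPM in E14.5 epithelium, and Id3 at 201 CPM in control and 309 CPM in mutant mesenchyme, 309 and 306 CPM in E12.5 epithelium, and 223 and 215 CPM in E14.5 epithelium. None of these 3 genes was called in any of the 7 comparisons. In labelled mutant E14.5 epithelium Id1 was 1.41-fold (1.33 to 1.51) and Id2 1.41-fold (1.35 to 1.47) below the control. Id4, a family member at lower level, stood at 15.5 CPM in control and 6.62 CPM in mutant mesenchyme, 21.01 and 13.2 CPM in E12.5 epithelium, and 24.5 and 19.6 CPM in E14.5 epithelium. Mutant mesenchyme had the lowest value of the 6 libraries, 2.34-fold (1.85 to 2.98) below control mesenchyme.

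Tgfbi lies on chromosome 13 from 56609523 to 56639562 in mm10 and stood at 843 CPM in control and 697 CPM in mutant mesenchyme, 177 and 272 CPM in E12.5 epithelium, and 77.7 and 456 CPM in E14.5 epithelium. Both mesenchymal values were above all 4 epithelial ones. Mesenchyme was above epithelium by 4.75-fold (4.58 to 4.93) in controls and 2.56-fold (2.47 to 2.66) in mutants. Control epithelium at E14.5 was 2.28-fold (2.14 to 2.44) below E12.5, and the labelled mutant at E14.5 was 5.86-fold (5.50 to 6.25) above its control.

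Between the fractions of control embryos at E12.5, 30 of the 45 genes were measured. Of these, 6 were higher in mesenchyme (Bmp5, Tgfb2, Acvr1, Tgfbr3, Fstl1 and Tgfbi), against 7.00% of all genes measured. Another 4 were lower in mesenchyme (Bmp7, Tgfb1, Acvr1b and Fstl3), or 13.3%, against 13.6% of all genes. The median log2 ratio was 0.15 over the measured members and 0.03 over all genes. Of 25 epithelial markers, 24 were lower in the mesenchyme (median log2 ratio -6.74), and of 24 mesenchymal markers measured 17 were higher (median 1.22). In bulk samples such as these, fewer cells of a type and less RNA per cell cannot be told apart. Endothelial markers summed to 66.9 CPM in mesenchyme and 297 CPM in epithelium, and leukocyte markers to 56.7 and 376 CPM, with Cdh5, Tie1, Emcn, Cldn5 and S100a9 at 0 in control mesenchyme. Neural markers were lower for 7 of 8 (median -5.75). Erythroid markers went the other way, at 65.7 CPM in mesenchyme and 0.7 CPM in epithelium, with 3 of 3 measured higher. The part of these markers in the calls was not tested.

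In the mutant pair at E12.5, 34 genes were measured. The 5 that were higher in mesenchyme were Bmp4, Bmp5, Bmpr2, Acvr2a and Tgfbi, against 5.42% of all genes. The 7 that were lower were Bmp2, Bmp7, Tgfb1, Acvr1b, Bambi, Nog and Sostdc1, against 12.9%. Members had a median log2 ratio of 0.15, all genes one of 0.03. Bmp5 and Tgfbi were higher in mesenchyme in both pairs, and Bmp7, Tgfb1 and Acvr1b were lower in both; whether the pairs differ for the other genes was not tested. In this pair 8 of 24 mesenchymal markers were higher in mesenchyme, with a median of 0.70, and 5 of 7 smooth muscle markers were lower, with a median of -2.09. Smooth muscle markers summed to 272 CPM in mutant mesenchyme and 302 CPM in the labelled mutant epithelium, endothelial markers to 76.1 and 364 CPM, and leukocyte markers to 13.6 and 235 CPM. Mesothelial markers were lower for 5 of 6 and neural markers for 6 of 8. Erythroid markers summed to 2.1 and 17.9 CPM, and the part of these lists in the calls was not tested.

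**Figure D3:**
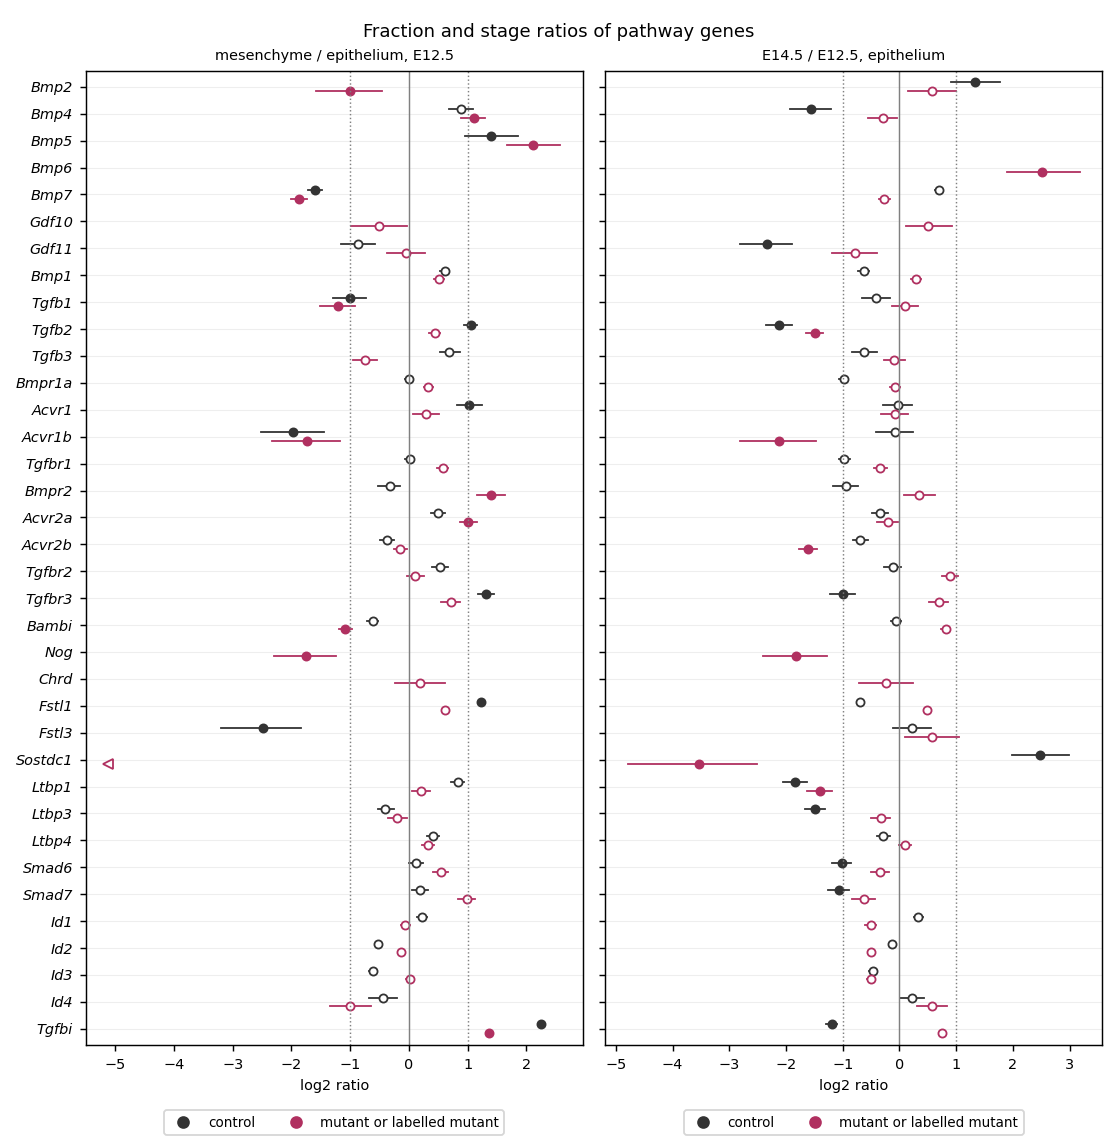
Log2 ratios of member genes between fractions at E12.5 (left) and between stages in epithelium (right), with 95% counting intervals; dark points are control pairs, red points mutant or labelled mutant pairs, and filled points are called at 2-fold (dotted lines). Genes not measured in a comparison have no point there, and the left-pointing triangle is a ratio in which a library with no read was given 3 counts. Tgfbi and Bmp5 lie to the right and Bmp7 and Acvr1b to the left in both pairs of fractions.

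Between genotypes in E12.5 mesenchyme, the fraction with the highest Nkx2-5 (41.2 and 66.8 CPM), 29 genes were measured. None was called higher, against 1.96% of all genes, and Tgfb3 and Id4 were lower, against 3.50%. The median log2 ratio was -0.09 for the members and -0.01 for all genes. Over all genes with a mean of 10 to 30 CPM, where Id4 lies, the log2 ratio of this pair had an SD of 0.56 across genes, of which counting gives 0.12. For genes at 30 to 100 CPM, where Tgfb3 lies, the SD was 0.36. Mesenchymal markers were nearly level, with 1 of 24 higher, 2 lower and a median of -0.20. Erythroid markers moved most of the marker lists, from 65.7 CPM in control to 2.1 CPM in mutant mesenchyme, with 3 of 3 measured lower and a median of -5.62. Leukocyte markers summed to 56.7 CPM in control and 13.6 CPM in mutant mesenchyme, and smooth muscle markers to 372 and 272 CPM. Their part in the 2 calls was not tested. Of all calls in this comparison 35.8% were upwards, and 54.9% relative to the mesenchymal marker median. On that scale Tgfb3 was no longer called, at a log2 ratio of -0.82, and Bmp5 was called higher, at 1.02, against 3.01% of all genes higher and 2.48% lower.

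In E12.5 epithelium, 34 genes were measured between genotypes. Nog and Sostdc1 were higher in the labelled mutant, against 1.79% of all genes, and Bmpr2 was lower, against 3.21%. The median log2 ratio was 0.03 for the members and 0.00 for all genes. For genes at 5 to 10 CPM the SD of the log2 ratio was 0.77 across genes, and Nog and Sostdc1 lie at or below that level. No epithelial marker was called. Splanchnic mesenchyme markers came to 286 CPM in control and 556 CPM in labelled mutant epithelium, with 3 of 5 measured higher. Smooth muscle markers came to 138 and 302 CPM, with 4 of 7 higher and a median of 1.52, and erythroid markers to 0.7 and 17.9 CPM. Their part in the 3 calls was not tested. Of all calls 35.8% were upwards, against 55.7% relative to the epithelial and 16.7% relative to the mesenchymal marker median. Tgfb2 and Chrd were called higher only on the epithelial of these scales, at log2 ratios of 1.07 and 1.02, and Fstl3 lower only on the mesenchymal one, at -1.13.

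E14.5 epithelium gave the most member calls of the 3 genotype comparisons. Of 33 measured, 8 were higher in the labelled mutant (Bmp4, Bmp6, Tgfb2, Tgfbr2, Tgfbr3, Bambi, Fstl1 and Tgfbi), or 24.2%, against 9.64% of all genes. Acvr1b and Sostdc1 were lower, or 6.06%, against 6.40%. Members had a median log2 ratio of 0.42 and all genes one of -0.03. The log2 ratio of this pair had an SD across genes of 1.2 at 5 to 10 CPM, where Bmp6, Acvr1b and Sostdc1 lie. At 10 to 30 CPM, where Bmp4 and Tgfb2 lie, the SD was 0.84. It was 0.61 at 30 to 100 CPM and 0.51 at higher levels. Markers moved in the same pair: mesenchymal markers summed to 6607 CPM in control and 13439 CPM in labelled mutant epithelium, and 17 of 24 were higher with a median of 1.30. Epithelial markers summed to 8538 and 4709.5 CPM, and 12 of 25 were lower with a median of -0.95. Splanchnic markers summed to 109 and 440.3 CPM, with Nkx2-5 and Foxf2 at 0 in the control, and smooth muscle markers to 131 and 716 CPM, with 6 of 7 higher. Neural markers were higher for 4 of 8 and erythroid markers for 2 of 2. Endothelial markers were nearly level, with 4 of 10 higher, 1 lower, a median of 0.2 and sums of 268 and 281 CPM. The comparisons of fractions at E12.5 share no library with this one. Of the 8 genes, 4 (Tgfb2, Tgfbr3, Fstl1 and Tgfbi) were among the 6 that were higher in mesenchyme between control fractions, and none was lower there. Over all 1171 genes called higher at E14.5, 37.2% were higher in control mesenchyme and 8.03% lower. Between mutant fractions, 2 of the 8 (Bmp4 and Tgfbi) were among the 5 that were higher in mesenchyme and Bambi was lower, against 21.9% and 10.1% of the same 1171 genes. When ratios were set relative to the median of the mesenchymal markers, Tgfbi alone of the 8 stayed called, at a log2 ratio of 1.25, and Tgfbr2 and Bambi changed sign to -0.25 and -0.26. Relative to the epithelial markers, 21 members were called higher, against 44.0% of all genes. Of all calls 60.1% were upwards on the common scale, 97.3% relative to the epithelial and 1.77% relative to the mesenchymal markers. The part of the marker difference in the member calls was not tested.

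**Figure D4:**
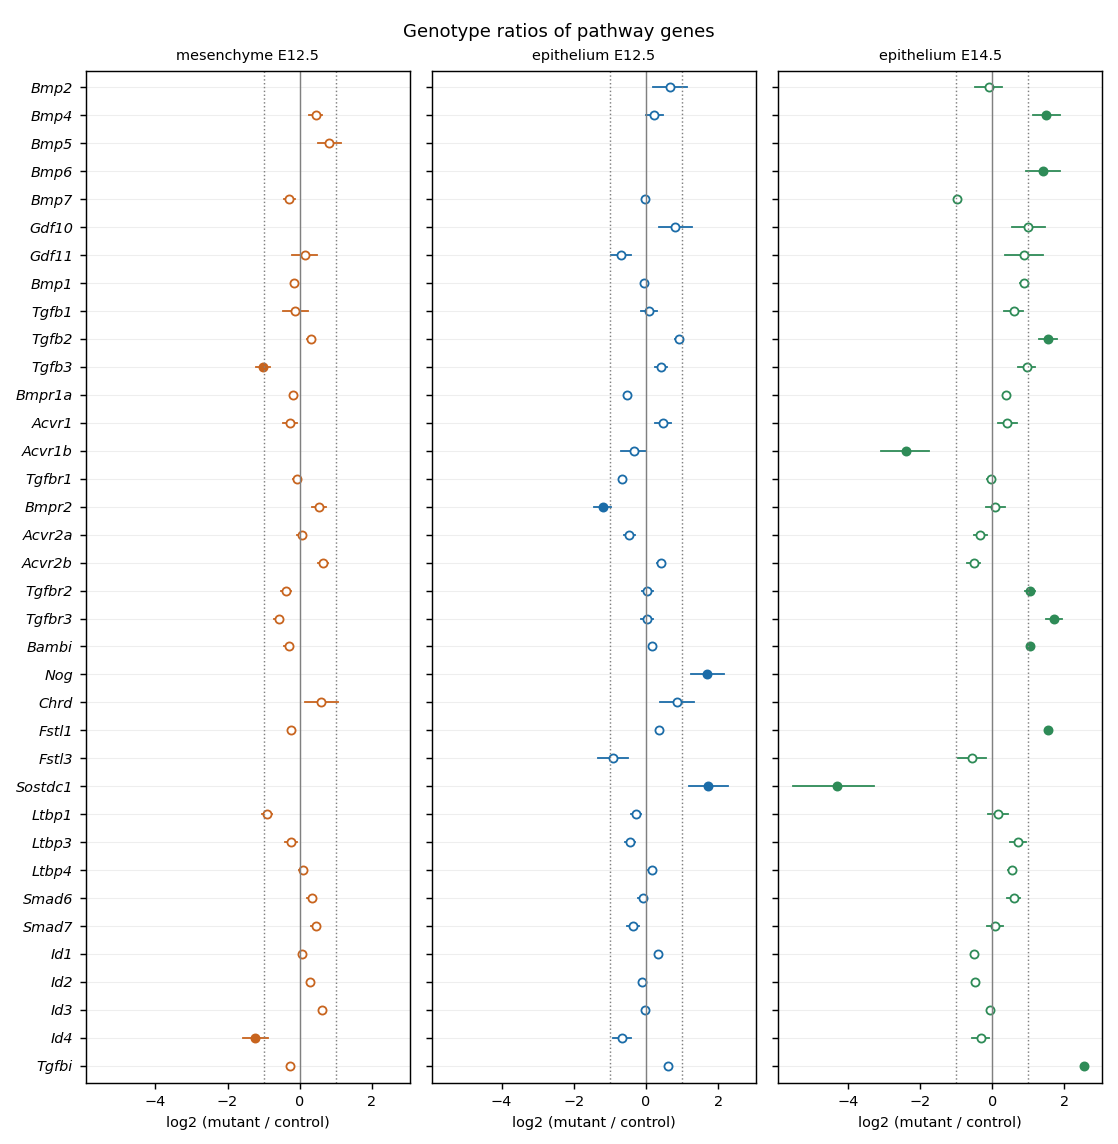
Log2 ratio of mutant or labelled mutant to control for member genes in E12.5 mesenchyme, E12.5 epithelium and E14.5 epithelium, with 95% counting intervals and filled points for calls at 2-fold (dotted lines). Sostdc1 lies at 1.73 in E12.5 and -4.29 in E14.5 epithelium, and Tgfbi lies farthest to the right at E14.5.

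Between the stages in control epithelium, 31 genes were measured. Bmp2 and Sostdc1 were higher at E14.5, against 6.53% of all genes. The 9 that were lower were Bmp4, Gdf11, Tgfb2, Tgfbr3, Ltbp1, Ltbp3, Smad6, Smad7 and Tgfbi, or 29.0% of those measured, against 11.2%. Over the members the median log2 ratio was -0.62, and over all genes -0.03. Epithelial markers were higher at E14.5 for 7 of 25, with a median of 0.61, and 4 of 5 splanchnic markers measured were lower, with a median of -1.71. Of 23 mesenchymal markers measured, 6 were lower and 3 higher, with a median of -0.45. Endothelial markers were lower for 5 of 10, with a median of -0.80. Their part in the 9 calls was not tested. Of all calls in this comparison 36.9% were upwards, with 24.3% in plain CPM without scaling factors and 8.04% relative to the epithelial marker median.

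Between labelled mutant epithelia, 35 genes were measured. Bmp6 was higher at E14.5, against 6.27% of all genes, and Tgfb2, Acvr1b, Acvr2b, Nog, Sostdc1 and Ltbp1 were lower, against 5.89%. The median log2 ratio was -0.21 for the members and 0.00 for all genes. Tgfb2 and Ltbp1 were lower at E14.5 in both genotypes. Mesenchymal markers were higher at E14.5 for 6 of 24 and smooth muscle markers for 5 of 7, with medians of 0.55 and 1.22. In each of these lists 1 marker was lower. Leukocyte markers were higher for 4 of 9 and lower for 1, and neural markers were higher for 4 of 8. Endothelial markers went the other way, with 0 of 10 higher, 2 lower and a median of -0.67. The part of these lists in the member calls was not tested.

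Another 72 genes of the pathway were counted from lists of further ligands, receptors, antagonists, Smads and targets. Between control fractions 6 of 43 measured were higher in mesenchyme and 9 lower, against 7.00% and 13.6% of all genes. In the mutant pair 3 of 38 were higher and 4 lower, against 5.42% and 12.9%. Cdkn1a, a cell cycle inhibitor induced by TGF-beta, stood at 111 CPM in control epithelium and 0.537 CPM in control mesenchyme, 207-fold (105 to 479) lower in controls. Itgb6, the integrin subunit that activates latent TGF-beta, had no read in control mesenchyme and 10.8 CPM in control epithelium. Between genotypes 0 of 37 were higher and 1 lower in mesenchyme, against 1.96% and 3.50% of all genes. In E12.5 epithelium 1 of 41 was higher and 5 lower, against 1.79% and 3.21%, and in E14.5 epithelium 5 of 41 were higher and 3 lower, against 9.64% and 6.40%. The 1 in mesenchyme was Fstl4, a follistatin-like gene, at 10.4 CPM in control and 0.965 CPM in mutant, 10.8-fold (6.34 to 19.7) lower. Itgb6 stood at 10.8 CPM in control and 2.83 CPM in labelled mutant, 3.82-fold (2.75 to 5.42) lower between E12.5 epithelia and at 14.7 CPM in control and 4.38 CPM in labelled mutant, 3.36-fold (2.52 to 4.54) lower between E14.5 epithelia. Gdf6, a BMP ligand, stood at 7.60 CPM in control and 20.6 CPM in labelled mutant, 2.71-fold (2.17 to 3.41) higher at E14.5, and Kcp, a chordin-like modulator, at 3.29 CPM in control and 13.6 CPM in labelled mutant, 4.15-fold (3.01 to 5.82) higher. Between stages 4 of 43 were higher at E14.5 and 10 lower in controls, against 6.53% and 11.2% of all genes, and 7 of 41 higher and 4 lower in labelled mutants, against 6.27% and 5.89%. Cer1, an antagonist of Nodal and BMP, was higher in both, 5.59-fold (4.10 to 7.74) in controls and 11.6-fold (7.31 to 19.4) in labelled mutants. Kcp and Gdf6 were called lower at E14.5 in both. In controls Kcp went from 43.3 to 3.29 CPM, 13.2-fold (9.85 to 18.0) lower. Gdf6 went from 69.5 to 7.60 CPM, 9.14-fold (7.54 to 11.2) lower. Kcp was also called higher in mesenchyme in both pairs of fractions. None of the 13 measured Smads and intracellular regulators was called between fractions or genotypes. Between stages 2 of 13 were lower at E14.5 in controls and 1 of 13 in labelled mutants, against 11.2% and 5.89% of all genes.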

How the data were processed

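For each of the 6 libraries the authors deposited raw read counts per gene, as whole numbers without normalisation. Per the labels' protocols, Tomato and GFP cells were sorted, and RNA was purified from pools of the frozen fractions. Part of the mutant genotype is not reported here. The submitters' processing notes name mm10, Cufflinks 2.2.1 and Cuffdiff 2.2.1. Which aligner, counter, annotation and strand setting were used is not given in the sources used here. The 5 summary lines of each table were left out; reads on no gene made up 4.69% to 8.84%.

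Counts were scaled to CPM with TMM factors (edgeR 4.0.16, R 4.3.3) over all 6 libraries. Ratios of 2 libraries carry exact 95% conditional binomial (Clopper-Pearson) intervals, computed in Python 3.11.15 with scipy 1.17.1 and tested on simulated data. A library with no read was given 3 counts. No molecular identifiers mark the reads, which are therefore not independent molecules; floors and intervals reflect counting error alone. With 1 library per group no test was made. Exon lengths and positions are from GENCODE M21 (mm10). All 45 genes are named, those under 5 CPM by their highest value, and from the wider lists at most 4 called genes per comparison at 10 CPM or more, by the interval bound nearer to 1. The members, lists and thresholds were chosen with earlier results of these data known. Alternatives were DESeq2 1.42.0 size factors, plain CPM, no filter, a 20 CPM filter, a 1.5-fold threshold and scaling to epithelial or mesenchymal markers.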

Additional observations from a re-analysis of the deposited data

Results flagged for a closer look

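Sostdc1, the BMP and Wnt antagonist, had opposite genotype ratios at the 2 stages of the epithelium. The log2 ratio of labelled mutant to control was 1.73 at E12.5 and -4.29 at E14.5. In the other direction of the same 4 libraries, the log2 ratio of E14.5 to E12.5 was 2.47 in control and -3.54 in labelled mutant epithelium. These pairs of values are 1 pattern, since they come from the same 4 libraries, and with 1 library per group the difference between the ratios was not tested. The reads behind them were 43 and 102 at E12.5 and 164 and 8 at E14.5, control first. Epithelial markers were called lower for 12 of 25 in the E14.5 pair and for none in the E12.5 pair, and their part was not tested.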

How the results depend on the processing

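No paired analysis was possible because each group has 1 library and the labels give no replicate numbers. For the same reason no library could be left out of a comparison. With DESeq2 size factors all 226 member ratios stayed inside their counting intervals. Of 55 calls, Tgfbr3 and Smad6 between control stages were lost, and calls of Id4 between mutant fractions and Bmp7 between E14.5 genotypes were gained. Plain CPM lost the calls of Tgfb2 and Acvr1 between control fractions and of Acvr2a between mutant fractions. It gained Id4 between mutant fractions, Gdf10 and Tgfb3 between E14.5 genotypes, and Bmpr1a, Tgfbr1 and Bmpr2 between control stages. No called ratio changed sign.

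Without the filter, member calls were 9 lower in the control fractions, 8 higher in the mutant fractions, 2 higher between mesenchymal genotypes, 4 higher and 5 lower between E12.5 epithelial genotypes, 5 lower at E14.5, 6 higher between control stages and 3 higher between labelled mutant stages. At 20 CPM, they were 1 lower in the control fractions, 3 lower in the mutant fractions, 1 lower between mesenchymal genotypes, 0 higher between E12.5 genotypes, 0 lower between E14.5 genotypes, 0 higher between control stages, and 0 higher and 3 lower between labelled mutant stages. At 1.5-fold, they were 10 higher and 7 lower in the control fractions, 8 higher in the mutant fractions, 4 higher between mesenchymal genotypes, 7 higher and 5 lower between E12.5 genotypes, 15 higher between E14.5 genotypes, 16 lower between control stages and 5 higher between labelled mutant stages. The shares of all genes called at these settings are not given here, so the counts are not set against a background.

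Scaling to the epithelial markers gave 4 members higher between E12.5 genotypes, against 2.81% of all genes, 21 higher between E14.5 genotypes, against 44.0%, and 1 higher and 18 lower between control stages, against 2.66% and 30.4%. Bmp2 lost its call there. Scaling to the mesenchymal markers, chosen after seeing the data, gave 1 higher (Bmp5) and 1 lower (Id4) between mesenchymal genotypes, against 3.01% and 2.48% of all genes, with the call of Tgfb3 lost. It gave 2 lower between E12.5 genotypes, against 5.81%, and 1 higher and 15 lower at E14.5, against 1.30% and 72.2%, where it moved the median of all genes by -1.30 and turned Tgfbr2 to -0.25 and Bambi to -0.26. These shifts follow from the construction of the scale. Of the members, 9 lay under 5 CPM in every library and entered no comparison under the filter.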

Other observations

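Shares of reads within a ligand family do not depend on the scaling between libraries. They are given with exact 95% Clopper-Pearson intervals, which cover counting error only, and compare the same genes across libraries without a correction for gene length. Tgfb2 made up 68.6% (66.7% to 70.4%) of the reads of the 3 TGF-beta ligands in control mesenchyme and 82.4% (80.8% to 83.8%) in mutant mesenchyme. In epithelium its share was 54.4% (52.3% to 56.5%) and 64.8% (62.9% to 66.7%) at E12.5 and 28.3% (24.9% to 31.97%) and 39.9% (37.2% to 42.6%) at E14.5, control first. The share was thus higher in the mutant or labelled mutant library of all 3 pairs. Tgfb3, by contrast, made up 25.5% (23.8% to 27.3%) in control and 12.3% (11.1% to 13.6%) in mutant mesenchyme, and Tgfb1 33.4% (29.8% to 37.2%) and 24.4% (22.1% to 26.9%) in E14.5 epithelium. Both shares were also lower in the mutant or labelled mutant library of the other pairs, with overlapping intervals for Tgfb1 in mesenchyme and for Tgfb3 in E14.5 epithelium. The shares in a library add up to the whole, so a higher Tgfb2 share means a lower summed share of Tgfb1 and Tgfb3. In CPM, neither was lower in labelled mutant epithelium. Control first, Tgfb1 stood at 19.6 and 20.9 CPM at E12.5 and 14.8 and 22.3 CPM at E14.5. Tgfb3 stood at 25.95 and 34.7 CPM at E12.5 and 16.9 and 32.6 CPM at E14.5. In mesenchyme Tgfb3 was lower in the mutant, at 41.99 and 20.7 CPM. Tgfb1 was nearly level there, at 9.79 and 9.003 CPM on 146 and 140 reads.

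Bmp7 made up most of the reads of Bmp4 and Bmp7 together in every epithelial library. Its share was 89.8% (88.7% to 90.7%) and 88.00% (86.7% to 89.3%) at E12.5 and 97.7% (97.1% to 98.1%) and 88.2% (86.7% to 89.6%) at E14.5. In mesenchyme it was 60.96% (58.1% to 63.8%) in the control and 48.4% (45.6% to 51.3%) in the mutant. Id4 made up 2.34% (2.05% to 2.66%) of the reads of the 4 Id genes in control and 0.800% (0.653% to 0.969%) in mutant mesenchyme, and 2.38% (2.16% to 2.60%) and 1.51% (1.31% to 1.73%) in E12.5 epithelium. In E14.5 epithelium the intervals overlapped, at 3.07% (2.76% to 3.40%) and 3.13% (2.77% to 3.52%), so the share was not lower in all 3 pairs. With 1 library per group, none of these differences was tested against the spread between embryos.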
